A study of Mus musculus with 13 samples.

Results

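Insertions of a Sleeping Beauty transposon near the starts of protein-coding genes were examined in 2 pools of F123 mouse embryonic stem cells. A promoter site was a site on 1 of the 19 autosomes whose deposited position lay within 1000 bp of the 5′ end of a protein-coding gene record. Positions within 10 bp of each other, on either strand, were first merged into 1 site. By this rule 494 of 30187 autosomal sites were promoter sites, 23 of 727 in the pool sampled after remobilization of genomic transposons (the remobilized pool) and 471 of 29460 in the pool whose transposons came from plasmids (the plasmid pool). The rule used position alone. Reads, strand, side of the start and sequence were therefore not part of it.

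F123 is a hybrid (CastX129) line, grown here without serum in 2i and LIF. Both pools and a control without transposons are labelled wild type and carry 1 sequencing batch label. The other analysed samples are 9 clonal lines labelled rad21-dTag, which carry another batch label, so genotype, batch and the division into pools and clones cannot be told apart. In each library T7 RNA polymerase transcribed purified genomic DNA from inside the transposon, and the RNA that ran into the genome was sequenced. Each group is 1 library. The tests compare libraries with sites as units, and intervals cover counting error alone.

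Sleeping Beauty moves by cut and paste. Its transposase joins the element to a TA dinucleotide, which is copied in the process, so a stretch without TA offers it no target. Mammalian promoters are often built around CpG islands, which are rich in G and C, and the region just around an active start is kept largely free of nucleosomes. Other integrating elements are known for favouring starts, while Sleeping Beauty is known for spreading widely over the genome.

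The target letters show what an insertion at a start looks like. The following stretches of 25 bases are on the plus strand of GRCm38, read from GENCODE transcripts or from RefSeq promoter stretches (GRCm38.p6), with the TA nearest to the deposited base in capitals. They were chosen as the sites nearest to a start, or as members of the named lists, that had sequence.
Hist2h3b, remobilized pool, chr3:96268299-96268323: ctgaagttaaaTAaatgctaactgt
Hsd3b5, plasmid pool, chr3:98630228-98630252: tatagatgtgaTAtaaagtgttcct
Fam19a1, plasmid pool, chr6:96113142-96113166: ccctgctccTAcatttcgctgccta
Gm10800, remobilized pool, chr2:98666928-98666952: aatacacacttTAggacgtgaaata
The Hist2h3b site lay 343 bp upstream of this histone H3 gene, inside an exon of the antisense gene Gm20628. The Hsd3b5 site lay 12 bp inside the first exon of a steroid dehydrogenase gene, and the Fam19a1 site fell on the first base of a gene for a secreted chemokine-like protein. The remaining one of the 3 plasmid pool sites nearest to a start was that of the predicted gene Gm17409, with 1 read at 5 bp (position 58470121 of chromosome 2). The Gm10800 site is described with its neighbours further on.

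Longer stretches show how widely the supply of TA varies among starts. Each line gives the 250 bases before a RefSeq start (GRCm38.p6) on the gene's strand, with every TA in capitals. Rab3b (a GTPase of regulated secretion), Pramel6 (a PRAME family gene) and Cd53 (a leukocyte tetraspanin) each took a plasmid pool site inside the stretch. Asxl2 (a chromatin regulator related to Polycomb proteins), Skap2 (an adaptor of Src family kinases) and Snx10 (a sorting nexin) had remobilized pool sites within 1000 bp but outside the stretch shown.
Rab3b, chr4:108878820-108879069, plus strand: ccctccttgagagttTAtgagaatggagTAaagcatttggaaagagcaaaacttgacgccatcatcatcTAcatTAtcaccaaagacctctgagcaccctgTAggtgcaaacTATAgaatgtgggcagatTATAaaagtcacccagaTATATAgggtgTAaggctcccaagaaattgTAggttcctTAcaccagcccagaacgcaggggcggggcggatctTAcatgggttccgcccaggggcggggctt
Pramel6, chr2:87506315-87506564, plus strand: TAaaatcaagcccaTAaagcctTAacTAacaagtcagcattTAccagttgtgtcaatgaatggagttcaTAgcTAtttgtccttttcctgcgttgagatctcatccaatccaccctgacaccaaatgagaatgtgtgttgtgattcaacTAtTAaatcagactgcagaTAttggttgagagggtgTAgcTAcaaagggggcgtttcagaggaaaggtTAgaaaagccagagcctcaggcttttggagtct
Cd53, chr3:106790150-106790399, minus strand: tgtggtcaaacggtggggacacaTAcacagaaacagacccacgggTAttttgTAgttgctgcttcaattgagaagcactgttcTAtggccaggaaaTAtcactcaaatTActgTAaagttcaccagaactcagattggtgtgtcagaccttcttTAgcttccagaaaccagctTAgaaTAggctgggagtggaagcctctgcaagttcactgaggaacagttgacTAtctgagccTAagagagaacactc
Asxl2, chr12:3426607-3426856, plus strand: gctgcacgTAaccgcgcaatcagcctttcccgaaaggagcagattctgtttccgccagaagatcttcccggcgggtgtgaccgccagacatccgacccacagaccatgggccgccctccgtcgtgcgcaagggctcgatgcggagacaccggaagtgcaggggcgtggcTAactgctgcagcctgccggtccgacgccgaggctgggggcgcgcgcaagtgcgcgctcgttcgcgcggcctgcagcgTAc
Skap2, chr6:52012550-52012799, minus strand: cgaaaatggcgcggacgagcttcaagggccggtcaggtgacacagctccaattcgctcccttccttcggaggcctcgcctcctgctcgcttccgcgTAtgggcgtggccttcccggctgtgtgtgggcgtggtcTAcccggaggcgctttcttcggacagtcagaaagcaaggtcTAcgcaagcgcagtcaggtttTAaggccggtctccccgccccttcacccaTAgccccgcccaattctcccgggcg
Snx10, chr6:51523653-51523902, plus strand: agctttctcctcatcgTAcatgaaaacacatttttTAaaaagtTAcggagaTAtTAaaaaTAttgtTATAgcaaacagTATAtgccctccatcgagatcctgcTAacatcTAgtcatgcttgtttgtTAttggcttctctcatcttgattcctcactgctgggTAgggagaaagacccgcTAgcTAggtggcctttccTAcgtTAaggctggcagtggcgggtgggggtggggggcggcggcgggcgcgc
Rab3b had 16 TA in these bases, and its insertion lay at the TA that begins at base 113. Pramel6 had 13 TA with the insertion at base 74, and Cd53 had 12 TA with the insertion at base 24. Asxl2 had 3 TA and 31 CG in the same length, and Skap2 had 5 TA and 24 CG. Snx10 went the other way, with 18 TA and 11 CG, more TA than any of the plasmid pool examples. The printed Rab3b stretch was 48.8% G and C, Pramel6 42.0%, Cd53 45.2%, Asxl2 67.6%, Skap2 64.0% and Snx10 48.4%. These stretches are examples and were picked after their values were seen. The first 3 were taken for holding an insertion, which needs a TA, so they give no comparison between the pools.

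The remobilized pool had close to double the promoter share of the plasmid pool. Of its autosomal sites, 3.16% (95% Clopper-Pearson interval 2.02 to 4.71) lay at a start, against 1.60% (1.46 to 1.75) of plasmid pool sites. Windows of 1000 bp around the starts of 20807 protein-coding genes covered 1.63% of the 2403 Mb of autosomal span, which is the share that uniform positions would give. The odds ratio between the pools was 2.01 (two-sided Fisher's exact test, adjusted p = 0.00441). Against uniform positions the remobilized pool stood at 1.94 times (two-sided exact binomial test, adjusted p = 0.00441), and the plasmid pool at 0.982 times, which did not pass the test (adjusted p = 0.713). Off chromosome 6, where the remobilized pool is densest, the shares were 3.31% (16 of 483 sites) and 1.64% (454 of 27705), with an odds ratio of 2.06 (Fisher's exact test, adjusted p = 0.0154). The call between the pools was lost in a window of 500 bp (adjusted p = 0.366, off chromosome 6 0.393) and with at least 5 reads per site (adjusted p = 0.215, off chromosome 6 0.420), by Fisher's exact test. Off chromosome 6 it was also lost with at least 2 reads per site (Fisher's exact test, adjusted p = 0.126).

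A large part of the plasmid pool's promoter sites came from 2 small loci. Of its 471 promoter sites, 125 (26.5%) lay in 2 bins of 50 kb, between 98662285 and 98667259 on chromosome 2 and between 3000134 and 3037444 on chromosome 9. The 11 genes there are predicted genes with Gm symbols. The bins were singled out after the counts were seen, as those with at least 10 promoter sites of the plasmid pool. Leaving them out therefore lowers that pool's share by construction, and p-values without them do not allow for this choice. Without these loci the plasmid pool had 346 promoter sites of 29249, or 1.18% (1.06 to 1.31), a ratio to uniform of 0.727 (exact binomial test, adjusted p = 9.44e-10). The remobilized pool then had 22 of 726 sites at starts (3.03%), and the odds ratio rose to 2.61 (Fisher's exact test, adjusted p = 0.000162). With the loci kept, the plasmid pool was called below uniform in a window of 500 bp (-0.182 points, exact binomial test, adjusted p = 0.00116) and above it with at least 5 reads per site (0.871 points, exact binomial test, adjusted p = 0.0184) and without merging (0.225 points, exact binomial test, adjusted p = 0.00377). Its standing against uniform thus changed with these choices.

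Neither the control nor the clones added promoter sites. The control had 1 read in all and no site. The 9 clones together had 56 autosomal sites, with 62 to 3319 reads a clone, and 0 of them lay at a start, which by the limit of 3 counts allows a share of up to 5.36%. At that depth a share like those of the pools was not detectable.

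The excess of remobilized sites did not sit on the starts themselves. No site of this pool lay under 250 bp from a start (steps of distance include their lower and not their upper bound), where 3.02 were expected from uniform positions (ratio 0, upper limit 1.22, exact binomial test, adjusted p = 0.0827). Between 250 and 500 bp there were 7 sites, 2.37 times uniform (exact binomial test, adjusted p = 0.0361). From 500 to 1000 bp there were 16 sites (2.73 times), from 1000 to 2000 bp 43 sites (3.73 times), from 2000 to 5000 bp 87 sites (2.65 times) and from 5000 to 10000 bp 103 sites (2.16 times). Beyond 10000 bp lay 471 sites, 0.756 times uniform. The highest ratio was thus outside the promoter window, and the intervals of neighbouring steps from 250 to 5000 bp overlapped. The call at 250 to 500 bp was lost without chromosome 6, without sites of 1 read and without the dense loci, where it rested on 6 sites (2.03 times, exact binomial test, adjusted p = 0.0965).

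In the plasmid pool the steps nearest to the start were below uniform once the dense loci were left out. Without the dense loci it had 53 sites under 250 bp from a start, 0.436 times uniform (interval 0.327 to 0.570, exact binomial test, adjusted p = 8.60e-12), and 70 sites at 250 to 500 bp, 0.589 times (adjusted p = 2.54e-06). From 500 to 1000 bp the ratio was 0.939 (221 sites, exact binomial test, adjusted p = 0.377), and from 1000 to 2000 bp 1.06 (492 sites, adjusted p = 0.205). At 2000 to 5000 bp it was 1.20 (1581 sites, exact binomial test, adjusted p = 2.51e-12). At 5000 to 10000 bp it was 1.12 (2141 sites, exact binomial test, adjusted p = 4.29e-07), and beyond 10000 bp 0.985 (24691 sites, exact binomial test, adjusted p = 7.36e-10). With both sides together, the steps under 10000 bp called below uniform were those under 500 bp. With the dense loci the first step held 89 sites (0.727 times, exact binomial test, adjusted p = 0.00274), the step from 250 to 500 bp did not pass (100 sites, 0.835 times, exact binomial test, adjusted p = 0.0796), and those from 500 to 1000 bp (280 sites, 1.18 times, adjusted p = 0.00860) and from 1000 to 2000 bp (517 sites, 1.11 times, adjusted p = 0.0302) stood above uniform.

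**Figure D1:**
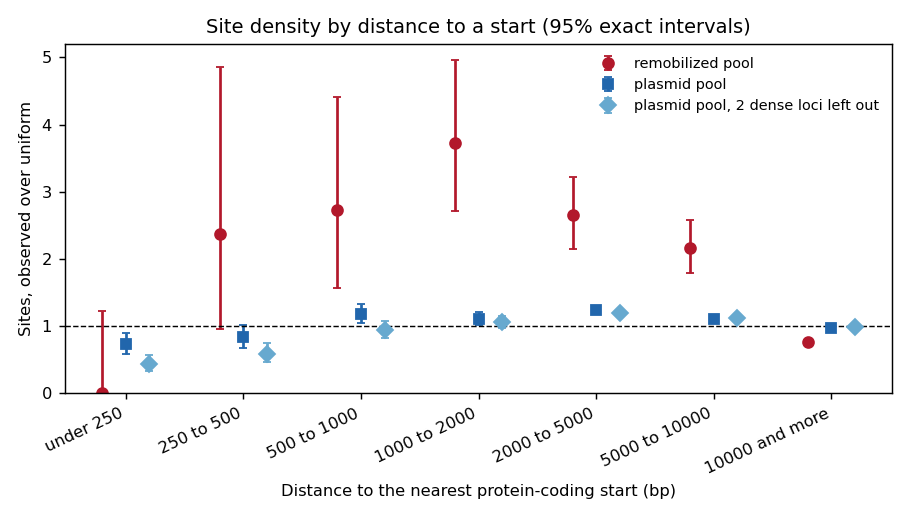
Ratio of observed sites to those expected from uniform positions (vertical axis) by distance to the nearest protein-coding start in bp (horizontal axis). Points are single libraries, bars are 95% exact intervals and the dashed line is the uniform level. The remobilized pool has 0 sites in the first step and is highest at 1000 to 2000 bp, while the plasmid pool without the dense loci climbs from 0.436 in the first step to 1.20 at 2000 to 5000 bp and stands at 0.985 beyond 10000 bp.

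Set against each other step by step, the pools differed at every distance from 250 bp outward. The odds ratio was 2.85 at 250 to 500 bp (Fisher's exact test, adjusted p = 0.0175, lost with at least 2 reads per site, adjusted p = 0.0722), 2.35 at 500 to 1000 bp (adjusted p = 0.00433) and 3.52 at 1000 to 2000 bp (adjusted p = 1.08e-10). It was 2.11 at 5000 to 10000 bp (Fisher's exact test, adjusted p = 4.62e-10). Under 250 bp Fisher's exact test did not separate 0 of 727 sites from 89 of 29460 (adjusted p = 0.281). Among sites within 10 kb of a start, 8.98% of remobilized and 9.88% of plasmid sites were promoter sites, and the pools did not differ by the test (odds ratio 0.901, Fisher's exact test, p = 0.746). Without the dense loci the order turned, to 8.63% and 7.59% (odds ratio 1.15, Fisher's exact test, p = 0.544). Uniform positions would give 11.4%. The excess of the remobilized pool thus extended over the 10 kb around starts and was not shown to be larger inside the promoter window.

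Of the windows hit by the remobilized pool, 22 belong to named genes with varied roles and 1 to the predicted gene Gm10800. Of the 20807 windows, 0.111% (23) held a site of this pool and 1.73% (359) a site of the plasmid pool. A site can lie in the windows of more than 1 gene, so windows and sites are counted apart. Snx10, which acts at endosomes, had a site with 2 reads at 718 bp upstream and another with 8 reads at 446 bp upstream, both on the strand opposite to the gene. A further site, with 6 reads at 1035 bp upstream, was just outside the window. Skap2 had the best supported promoter site of the pool, with 35 reads at 944 bp inside its first intron (position 52011605), and a site with 2 reads at 543 bp upstream. These 4 sites lay 201 to 691 kb from the chromosome 6 site of the 5kb clone.

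The other well supported sites were spread over 3 chromosomes. Eri3, an exoribonuclease family member, carried a site with 11 reads at 761 bp inside an intron on chromosome 4. Il12rb1, a subunit of the interleukin-12 receptor, carried 10 reads at 298 bp inside an intron on chromosome 8, the nearest of all 23 to a start. Asxl2 carried 5 reads at 568 bp upstream on chromosome 12, at a place where the antisense gene 1110002L01Rik is annotated. Among upstream sites the nearest to a start were those of Mrpl58, a peptidyl-tRNA hydrolase of the mitochondrial ribosome (301 bp, 3 reads), and Hist2h3b (343 bp, 1 read).

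The remaining members of the remobilized pool had 1 to 4 reads each. Upstream of their start were the sites of Malsu1, a mitochondrial ribosome assembly factor (374 bp, 2 reads), Mettl16, an RNA methyltransferase (381 bp, 1 read), Tax1bp1, an autophagy receptor (595 bp, 3 reads), Ubxn1, a cofactor of the p97 ATPase (704 bp, 3 reads), and Tekt2, a tektin of cilia (867 bp, 1 read). Dynlt1b and Dynlt1c, near-identical dynein light chain genes on chromosome 17, had 3 reads each at 707 and 664 bp upstream, and placement between such copies is uncertain. Inside an intron were the sites of Vps25, an ESCRT-II subunit (643 bp, also within Ramp2), Apopt1 (650 bp), Slc37a1, a sugar phosphate transporter (662 bp), and March7, a ubiquitin ligase (922 bp), each with 1 read. Plekhg6 (715 bp) had 2 reads and Zfp213, a zinc finger gene (923 bp), had 4. In all, 8 of the 23 sites rested on 1 read. At the edge of the window, Skap2 (944 bp) and Zfp213 (923 bp) were the last inside, and Map3k12 (1019 bp) and Snx10 (1035 bp) the first outside.

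**Figure D2:**
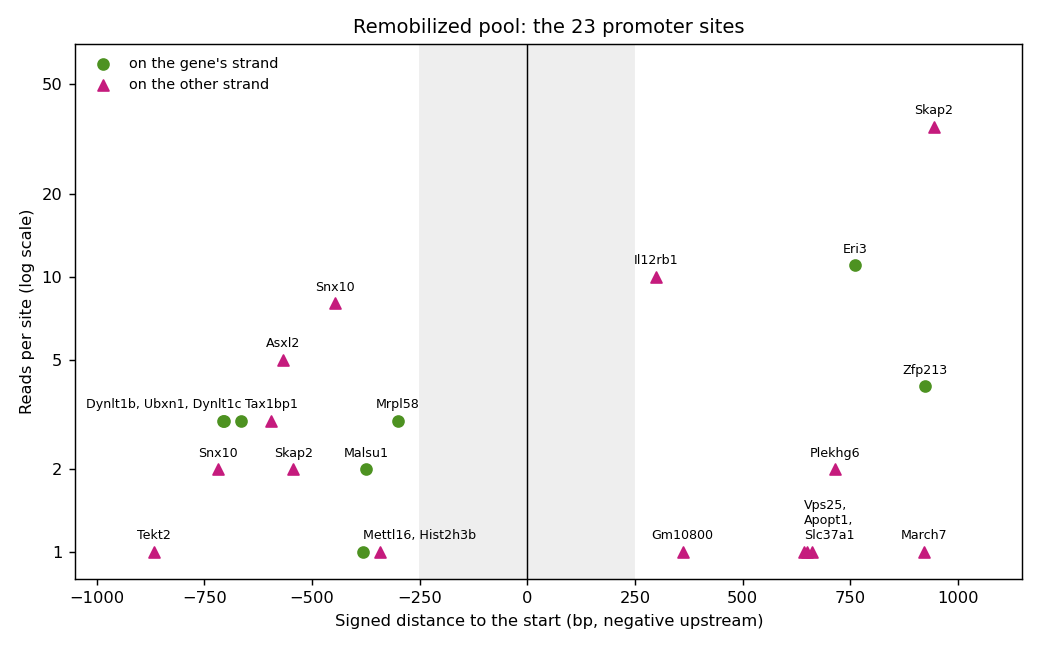
Reads per site (vertical axis, log scale) against signed distance to the start in bp (horizontal axis) for the 23 promoter sites of the remobilized pool. Circles are sites on the gene's strand, triangles sites on the other strand, and the grey band marks the bases under 250 bp from the start, which hold none of the 23 sites.

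Outside the dense loci, exons were hit less than their share of the windows. Downstream of a start, exons of the gene made up 41.6% of window bases. This share was not matched for distance. Exonic bases crowd near the start, with 4088942 under 250 bp downstream and 2163630 at 250 to 500 bp. A low exon share can therefore not be told apart here from the low site density close to starts. Of 10 downstream sites of the remobilized pool, 9 lay in an intron, and the 1 exonic site was that of Gm10800. Without the dense loci this was 0 of 9 sites (interval up to 33.6%, exact binomial test, adjusted p = 0.0130), and with them 1 of 10 (adjusted p = 0.107). The plasmid pool without the dense loci had 26 of 119 downstream sites in an exon, or 21.8% (14.8 to 30.4, exact binomial test, adjusted p = 1.87e-05). With them the share was 40.0% (86 of 215, exact binomial test, adjusted p = 0.678), and in a window of 500 bp it was above that of the bases (73.9% against 58.3%, exact binomial test, adjusted p = 0.00422).

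Plasmid pool sites outside the dense loci lay mostly upstream. Of 346 sites, 227 (65.6%, interval 60.3 to 70.6) were upstream of their nearest start, against 49.2% of the window bases (exact binomial test, adjusted p = 2.69e-09). The side with fewer sites was the transcribed one: at 250 to 500 bp the ratio to uniform was 0.941 upstream (55 sites) and 0.249 downstream (15 sites). Under 250 bp it was 0.570 upstream (34 sites) and 0.307 downstream (19 sites). From 500 to 1000 bp it was 1.19 upstream (138 sites) and 0.710 downstream (85 sites, interval 0.567 to 0.878). Downstream, there were 6.60 sites per Mb at 500 to 599 bp (13 sites). At 900 to 1000 bp there were 11.6 per Mb (23 sites), against 12.0 beyond 10000 bp from any start. The lower density downstream was thus not shown to reach 1000 bp. From 1000 to 2000 bp the ratios to uniform were 1.14 upstream and 0.980 downstream. With the dense loci the upstream share was 54.4% (256 of 471, exact binomial test, adjusted p = 0.0807) and did not pass, though in a window of 2000 bp it did (53.2% against 49.1%, exact binomial test, adjusted p = 0.0296). The remobilized pool had 13 of 23 sites upstream (56.5%, adjusted p = 0.804), and the pools were not shown to differ in this respect (Fisher's exact test, p = 1).

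**Figure D3:**
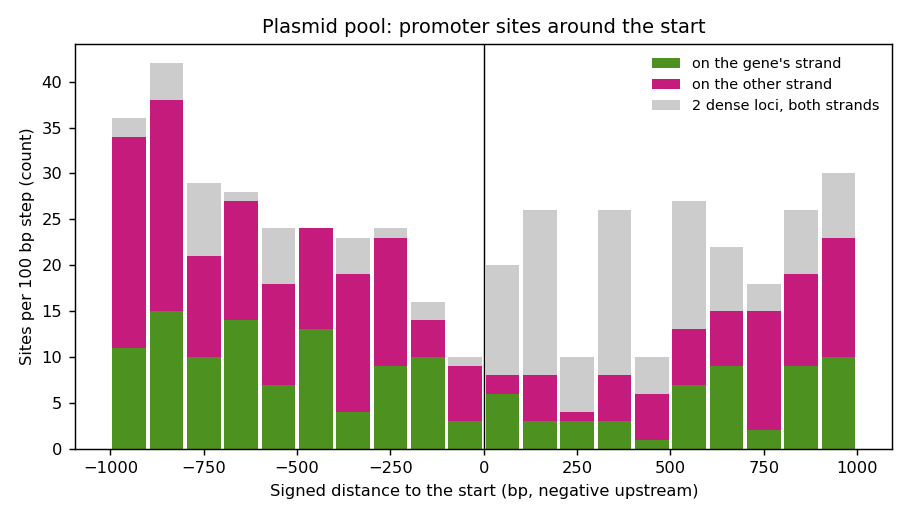
Number of plasmid pool promoter sites per 100 bp step (vertical axis) by signed distance to the start in bp, negative upstream (horizontal axis). Green and magenta are sites on the gene's strand and on the other strand outside the dense loci, grey are the 125 sites of the 2 dense loci, which fill much of the downstream side.

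Read strand leaned away from the gene, mainly through the dense loci. Over both sides, 162 of 471 plasmid pool sites (34.4%, 30.1 to 38.9) were on the gene's strand (exact binomial test, adjusted p = 2.37e-11). In the dense loci 112 of 125 (89.6%) were on the other strand. On chromosome 9 all 78 sites had a nearest gene on the plus strand, and 76 of the sites themselves were on the minus strand. Elsewhere 149 of 346 (43.1%, 37.8 to 48.5) were on the gene's strand (exact binomial test, adjusted p = 0.0228), with 42.3% upstream (adjusted p = 0.143) and 44.5% downstream (adjusted p = 0.542). Of the remobilized sites 8 of 23 were on the gene's strand (34.8%, 16.4 to 57.3, p = 0.210), which did not pass the exact binomial test. The strand is the one in the deposited files, and its relation to the transposon's own orientation is not given in the sources used here.

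By the share of sites with at least 2 reads, promoter sites were not shown to differ from other sites. In the remobilized pool 15 of 23 promoter sites (65.2%) and 57.5% of other autosomal sites had at least 2 reads. In the plasmid pool the shares were 54.4% and 54.0% (Fisher's exact test, adjusted p = 0.889 in both pools). The median was 2 reads at promoter and other sites of both pools. Counts of 5 or more reads were more frequent at plasmid pool promoters by 3.42 points (two-sided Fisher's exact test, adjusted p = 0.00636), and 24 of the 44 such sites lay in the dense loci.

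Starts with a divergent partner, a protein-coding start on the other strand that points away within 1000 bp upstream, numbered 1450. They made up 3.98% of window bases and held 8 of the 471 plasmid pool sites (1.70%, exact binomial test, adjusted p = 0.0177). Without the dense loci, the share was 2.31% and did not pass the exact binomial test (adjusted p = 0.218). In the remobilized pool 2 of 23 sites were at such starts, those of Apopt1 and March7 (8.70%, 1.07 to 28.0, exact binomial test, adjusted p = 0.232). In a window of 2000 bp this pool's share was called (13.6% against 3.83%, exact binomial test, adjusted p = 0.00182). In a window of 500 bp, and with at least 2 reads per site, it was 0%.

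In the plasmid pool repeated hits at named genes were rare. Of 19040 windows whose gene has no Gm or Rik symbol, 308 (1.62%) held a site, 6 held 2, and none held more. These 6, named after their counts were seen, were Cd3e, Cxcr5, Fam19a1, Gpr22, Igfn1 and Ly6g6f. Cd3e, part of the T cell receptor complex, had 1 read at each of 660 and 724 bp upstream. Gpr22 had 7 reads at 833 bp upstream and 2 at 475 bp inside an intron, all on its own strand. Fam19a1 had 6 reads on the first base and 2 at 897 bp. The deepest sites outside the dense loci, also named after their values were seen, were those of Slc31a2 (11 reads, 867 bp upstream) and Rnf122 (10 reads, 754 bp upstream). At the edge of the window Trim52 lay at exactly 1000 bp upstream and Tmem269 at 1000 bp downstream, with Aff3 (1002 bp) just outside.

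In the plasmid pool each single gene list had an interval that held the 1.73% of all windows. Olfactory receptors, the largest family of the genome and silent in most cells, had 28 of 1128 windows hit (2.48%, 1.66 to 3.57). Vomeronasal receptors had 6 of 329 (1.82%), taste receptors 2 of 38 and beta-defensins 3 of 42. Together 7 lists of receptor, defence and tissue genes had 42 of 1695 windows hit (2.48%, 1.79 to 3.33). This joint interval lay above the 1.73% of all windows, and no test was made. General cell machinery, in 6 lists from ribosome to replication, had 3 of 339 (0.885%, 0.183 to 2.56), which were Rpl30, Rps12-ps3 and Mrpl30. Proteasome subunits (49 windows), translation initiation factors (52), splicing factors (35), replication factors (33), histone genes (67), Hox genes (39), cytochrome P450 families (78) and 27 pluripotency genes had 0. Those counts are small, and the upper limits ran from 4.62% to 12.8%. Ribosomal proteins had 2 of 92 hits, keratins 2 of 53, kallikreins 1 of 27 and Zfp genes 4 of 385. The remobilized pool hit 0 of the 1695 receptor, defence and tissue windows (upper limit 0.217%), and 1 each of the mitochondrial ribosomal, histone and zinc finger lists (Mrpl58, Hist2h3b and Zfp213), against 0.111% of all windows.

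**Figure D4:**
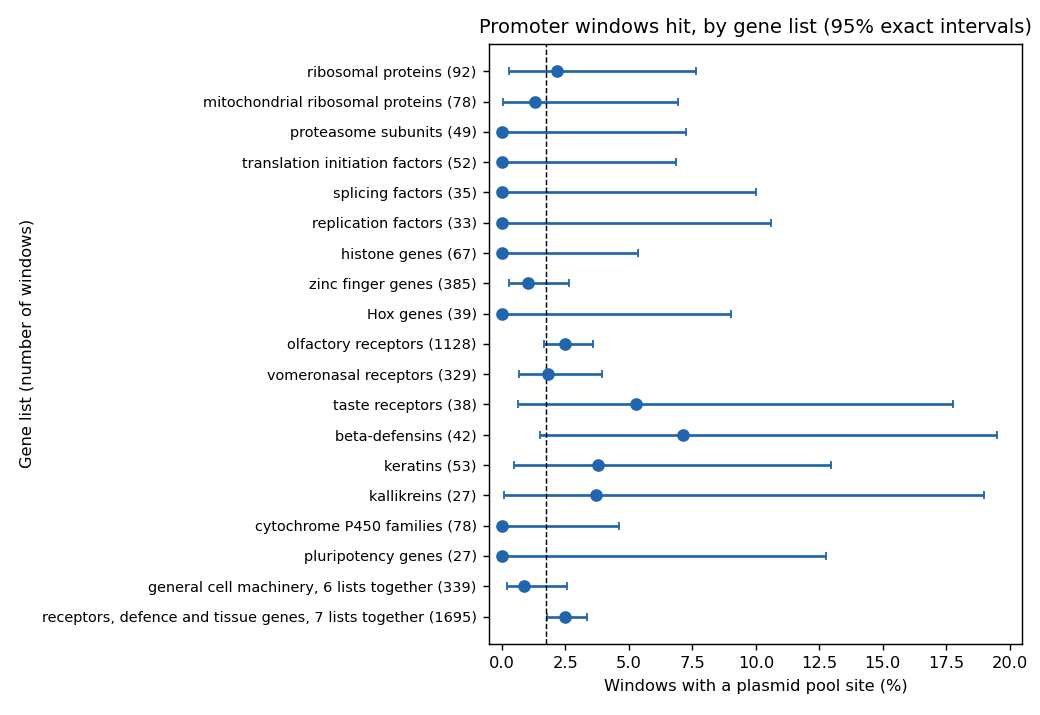
Share of windows with a plasmid pool site in percent (horizontal axis) for each gene list (vertical axis, number of windows in parentheses). Points are the counts of 1 library and bars 95% exact intervals. The dashed line is the 1.73% of all windows, which lies inside the interval of each of the 17 single lists. It lies below the interval of the 7 lists of receptor, defence and tissue genes together.

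The dense loci held copies of the same letters. Gm10800 had 31 plasmid pool sites in its window, Gm10722 18, Gm10801 16, Gm10721 12 and Gm11168 10, the 5 most of all windows. The best supported was at position 98666931 of chromosome 2, in Gm10800, with 35 reads, followed by 30 reads at 98667236 in the same window and 26 reads at 3001012 of chromosome 9, in Gm10722. The next were 21 reads at 98662601 in Gm10801 and 19 reads at 98667107 in Gm10800. The 1 remobilized site there, with 1 read at 98666940, was 9 bp from the best plasmid pool site. It was the only remobilized member within 10 bp of a plasmid pool site, and the 2 positions lay at different TA. Of 64 plasmid pool sites in these loci with sequence, 26 had the same 25 bases as another site. The most frequent run, shown because it stood at 11 positions, and the second, at 4 positions, were:
most frequent run: cctaaagtgtgTAtttctcattttc
second run: tttcctcgccaTAtttcatgtccta
Placement of a read among such copies is uncertain. Of the 64 sites, 31 had no TA within 2 bp of the deposited base.

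Outside the dense loci each of the 55 plasmid pool promoter sites with sequence had a TA within 2 bp (100%, 93.5 to 100), and in 78.2% the deposited base was the A of a TA. Over the 12608865 window bases with sequence the corresponding levels were 14.5% and 3.07%. With the dense loci 73.9% of 119 sites had a TA within 2 bp. Both remobilized sites with sequence had it. In the dense loci 51.6% had it (38.7 to 64.2). The repeated letters were not limited to these loci. The 25 bases at a site of the predicted gene Gm21738 (position 19418832 of chromosome 14), counted outside them, were the same as at 98666952 and 98667203 in Gm10800.

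In exonic bases, TA and plasmid pool sites were both scarcer near starts than far from them. Exonic bases held 2.42 TA per 100 less than 250 bp downstream of a start, 2.51 at 250 to 500 bp, 3.40 at 500 to 1000 bp and 4.98 beyond 1000 bp from any start. Counted over exonic bases without the dense loci, the plasmid pool had 14 sites under 250 bp from a start on either side, or 3.16 per Mb (exact Poisson interval 1.73 to 5.31), against 1328 sites beyond 1000 bp, or 11.9 per Mb (11.3 to 12.5). Per 100000 TA the values were 12.8 (6.98 to 21.4) and 23.9 (22.6 to 25.2), and 16.6 (11.4 to 23.4) from 250 to 1000 bp. Per TA the gap to distant exons was thus smaller than per base, and the intervals for the innermost and the distant exons still did not overlap. Introns and most upstream bases are not covered by these sequences, and the part of TA supply in the dip was not tested beyond these values.

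**Figure D5:**
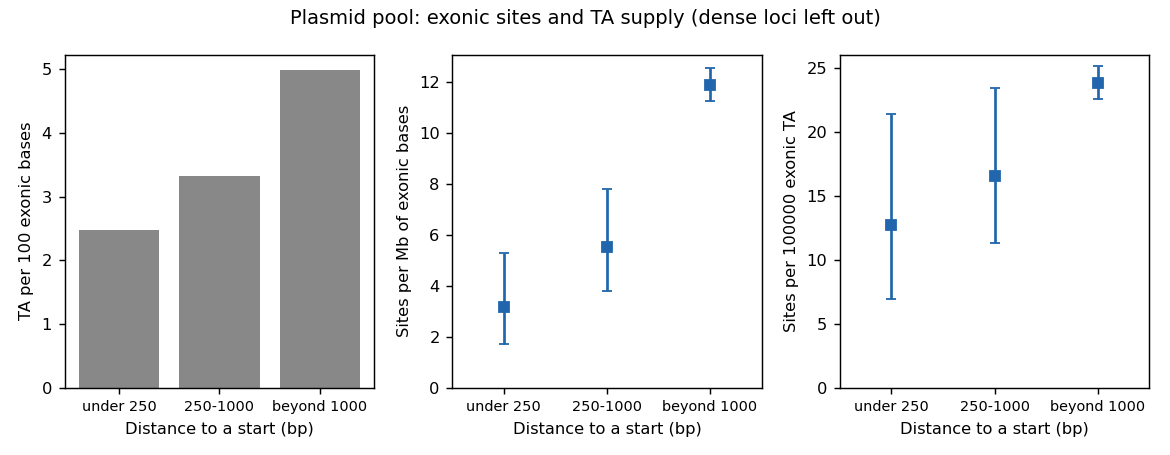
TA per 100 exonic bases (left), plasmid pool sites per Mb of exonic bases (middle) and plasmid pool sites per 100000 exonic TA (right) by distance to a protein-coding start in bp. Bars in the middle and right panels are 95% exact Poisson intervals of 1 library, and the innermost class is below the outermost in all 3 panels.

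The letters of exonic bases just downstream of the starts hit were compared as a description, with no test. Only the exonic ones among the 250 bases from each start onward were counted. The median over all 20807 genes was 2.00 TA per 100 such bases (quartiles 1.01 and 3.36) and 60.4% G and C (51.5 and 68.9%). The 336 genes nearest to plasmid pool sites outside the dense loci had medians of 2.80 TA (quartiles 1.20 and 4.42) and 53.7% (47.3 and 64.5%). The 20 genes nearest to remobilized sites outside them had 1.76 TA (0.788 and 2.39) and 67.3% (65.0 and 71.1%). The medians of G and C lay below that of all genes in the plasmid pool and above it in the remobilized pool, and the quartile ranges of each overlapped those of all genes.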

How the data were processed

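T7 in situ transcription libraries of transposon junctions from F123 cells were used for the remobilized pool, the plasmid pool, 1 control and 9 clones. Of 13 labelled samples, that of the parental line was not used here. Libraries were made, per the labels, with a stranded total RNA kit. The authors deposited, for each library, read counts per single-base position and strand as whole numbers, with no normalization stated. Whether duplicates were removed, and whether 1 count is a read or a mate, is not given in the sources used here, and the counts carry no molecular identifiers. The submitters' processing notes name BWA, FastQC, deepTools and the build mm10, with no roles or versions. The reference is not the hybrid genome of the cells, and how reads from the castaneus allele or from repeats were placed is not given in the sources used here.

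Reads placed on the genome numbered 2116 in the remobilized and 63031 in the plasmid pool, at 746 and 31146 sites. Reads without a position, 503 and 15307, were left out. Starts, exons and gene types came from GENCODE M21 (GRCm38). The uniform share is the exact part of the span covered, from 3 Mb, where the sequence of these chromosomes begins, to the end of the last annotated gene of each autosome, so no random positions were drawn. Tests were two-sided Fisher's exact and exact binomial tests with Benjamini-Hochberg adjustment within each family and a threshold of 0.05. Intervals are 95% Clopper-Pearson or exact Poisson intervals and cover counting error only. Scripts ran in Python 3.11.15 with scipy 1.17.1, statsmodels 0.14.6 and pandas 2.3.3 and were tested on simulated data. RefSeq stretches covered 60.8% of member genes, under the 80% needed, so a comparison of base composition from them is void, and exonic bases were used in its place.

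Genes were named where both pools hit the window, where the remobilized pool hit it at least 2 times, for the 5 windows with most plasmid sites, the 5 best supported and 3 nearest sites of each pool, remobilized sites in the gene lists, and the sites just inside and outside the window. Other names are said to be chosen later, apart from the remaining remobilized sites, which are all given. The members, lists and tests were chosen with earlier results of these data known. Alternatives covered other windows, merging distances, read minimums, start definitions and gene sets, with the dense loci, the share within 10 kb, the steps between pools and the strand of all sites added after seeing the data. 1 site just outside the window is not reported here.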

Additional observations from a re-analysis of the deposited data

Results flagged for a closer look

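The pools differed under the same measure in 8 results, each by Fisher's exact test on sites of 1 library per pool. The promoter share was 1.56 percentage points higher in the remobilized than in the plasmid pool, and 1.67 points higher off chromosome 6. By distance step the remobilized pool was higher by 0.623 points at 250 to 500 bp, by 1.25 points at 500 to 1000 bp, by 4.16 points at 1000 to 2000 bp, by 6.39 points at 2000 to 5000 bp and by 6.90 points at 5000 to 10000 bp. Beyond 10000 bp the difference was -19.0 points. The plasmid pool had 63031 placed reads and the remobilized pool 2116, and the part of depth in these differences was not tested. Leaving out the 2 dense loci widened the difference in the promoter share to 1.85 points. Those loci were chosen for their many plasmid pool promoter sites, which favours such a widening.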

How the results depend on the processing

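Over the results that answer a comparison, 117 of 184 values under an alternative stayed on the same side of 0 and of the threshold, or moved within their interval. Another 23 changed sign without passing the threshold under either setting. The excess of the remobilized pool was positive under every alternative run and lost its call in these cases. At 500 bp the difference was 0.321 points against the plasmid pool and 0.139 against uniform (off chromosome 6, 0.371 and 0.206). With at least 5 reads it was 1.92 and 2.80 (off chromosome 6, 1.93 and 2.91), and with at least 2 reads off chromosome 6 1.41 and 1.39. By shares of reads it was 3.41 against uniform, with no test. The plasmid pool against uniform had no stable direction. It was lower and called at 500 bp (-0.182, off chromosome 6 -0.166), with merging within 1000 bp (-0.429 and -0.424), without Gm and Rik genes (-0.468 and -0.471) and without the dense loci (-0.445 and -0.442). It turned higher at 5000 bp (1.19 and 1.27), with at least 5 reads (0.871 and 0.979) and without merging (0.225 and 0.270), and by shares of reads it was 0.300 and 0.336. Uncalled positive values were 0.209 and 0.194 with at least 3 reads, 0.131 and 0.155 at 2000 bp, 0.0079 and 0.037 with the span from position 1, and 0.0017 off chromosome 6 with transcript starts. The plasmid step of 500 to 1000 bp turned to -0.0608 without the dense loci and to -0.0591 with merging within 1000 bp, as a ratio less 1.

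In points, the plasmid upstream share was called without the dense loci (16.4 above the window bases) and at 2000 bp (4.14). The strand difference of the plasmid pool lost its call on each side apart without the dense loci (-7.71 upstream, -5.46 downstream, though not with the sides together) and at 500 bp upstream (-8.76), where that between the sides was called (20.6). Divergent starts lost it in the plasmid pool with at least 2 reads (-2.42), without the dense loci (-1.67) and at 2000 bp (-0.686), and gained it in the remobilized pool at 2000 bp (9.81). The exon share of the plasmid pool was called in both directions, at 15.6 in a window of 500 bp and at -19.7 without the dense loci. In the remobilized pool it was called without them (-41.5) and at 2000 bp (-21.4). With 5 or more reads the plasmid reads differed (3.42). TA at 1 fixed offset lowered the plasmid share of sites at a TA to 61.3%, and leaving out the dense loci raised it to 100%. The other uncalled changes of sign, in points, were as follows. Without chromosome 6, reads per site turned to -0.606 in the plasmid and -4.82 in the remobilized pool, the side between pools to -3.96, and the upstream strand of the remobilized pool to 12.5. Without the dense loci, plasmid reads turned to -0.265, the share within 10 kb to 1.04, the side between pools to -6.52 and the plasmid strand between sides to -2.25. At 2000 bp the side turned to -7.79 between pools and -3.65 in the remobilized pool, and its strand between sides to -3.33. At 500 bp its divergent starts turned to -4.30 and its upstream strand to 10.0. With at least 2 reads its divergent starts turned to -3.98 and the plasmid exon share to 1.93. Without merging, plasmid reads turned to -4.13. The causes of these changes were not tested, beyond the smaller number of sites in a narrower window. No paired analysis was possible because each group has 1 library. With 23 remobilized sites, shares within this pool have wide intervals, and calls per step rest on few sites.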
